A study of Mus musculus with 6 samples.

Results

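Major histocompatibility complex (MHC) class I molecules show peptides from inside a cell to CD8 T cells. The 32 genes described here are the class I heavy chains of the mouse H2 region, the class I-like genes Cd1d1 and Mr1, the shared light chain B2m, and the genes that cut, transport, trim and load the peptides. They were taken by symbol from a list, which was chosen with earlier results of these data known. All 32 were found among the 55471 genes of the deposited expression table. A gene was tested when its mean over the libraries was at least 10, and 30 of the 32 passed, among 19416 genes in all. H2-Q1 and H2-T3 did not pass.

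The RNA came from L1CAM+ tuft cells sorted from mouse thymus. Tuft cells of the thymus are epithelial cells of the medulla that share their chemosensory genes with tuft cells of the gut. Both genotypes carried floxed Ikzf1 (Ikzf1fl/fl), the gene of the transcription factor Ikaros, and differed in Foxn1-Cre, a Cre driven by the Foxn1 promoter, which is active in thymic epithelial cells. The 3 samples labelled WT were Foxn1-Cre (-) and the 3 labelled KO were Foxn1-Cre (+). Neither the age and strain of the mice nor their H2 haplotype is stated in the labels. The table's columns are Het1 to Het3, read as the Foxn1-Cre (-) group by elimination, and Ko1 to Ko3, read as the Foxn1-Cre (+) group. A given column cannot be matched to a given sample. No label says that the samples of a group came from separate mice, so a p-value here reflects only how far these samples scatter, and that scatter may be technical.

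Values are normalized values, which are read counts divided by a size factor for each library. The recovered reads came to 12238428 to 31435787 per library, and 3 reads were worth 1.68 to 4.33 normalized units. The targeted gene Ikzf1 stood at 187 to 301 in the Het libraries and at 1463 to 1717 in the libraries labelled Ko. This goes against the direction of a deletion, but the labels do not say which exons are floxed, so reads summed over all exons are no check of the deletion. Every direction below is therefore between libraries by their labels. All 14 tuft cell markers had reads, with the channel gene Trpm5 at 11647 to 19979 and the tuft cell transcription factor Pou2f3 at 2041 to 3089.7. In bulk samples such as these, fewer cells of a type and less RNA per cell cannot be told apart.

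A class I molecule is a heavy chain held together with beta-2 microglobulin and a short peptide. Proteasomes in the cytosol cut the peptides, and the immunoproteasome does so with inducible catalytic subunits that take the places of constitutive ones. The transporter TAP pumps peptides into the endoplasmic reticulum, where tapasin, calreticulin and ERp57 hold the empty heavy chain at TAP and aminopeptidases trim the peptides to length. The transactivator NLRC5 and interferon signalling raise the transcription of most of these genes. In the thymus, class I molecules on epithelium take part in the selection of developing CD8 T cells.

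Class I transcripts were abundant in these tuft cells. The share of all reads that fell on the 32 genes was 2.79%, 2.82% and 3.30% in Het1 to Het3, against 2.48%, 2.52% and 2.28% in Ko1 to Ko3. B2m alone took 1.46% to 2.16% of the reads of a library. Without B2m, the share was 1.06% to 1.14% in the Het libraries and 0.814% to 0.867% in the Ko libraries, so the groups did not overlap. On the scale of normalized value per kilobase of the longest protein-coding transcript, the Het mean was 385798 for B2m, 40489 for H2-K1 and 24480 for H2-D1. The next levels on the same per-kilobase scale were 10581 for Psme2, 5385 for H2-Q7, 5257 for Psme1, 4885 for Psmb10 and 4841 for H2-T23. The lowest member was H2-T3, at 2.10 per kilobase.

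The difference between the genotypes was mostly towards lower values in the Ko libraries and mostly small. H2-Q10 passed the minimum only through its Het libraries and so had to differ, so the counts here leave it out and are over the other 29, which had means of at least 10 in both groups. With limma (adjusted p under 0.05 over all genes tested), 1 of the 29 was lower in the Ko libraries, against 0.525% of all genes tested, and 0 were higher, against 0.288%. At an unadjusted p under 0.05 limma counted 9 lower, against 7.99% of all genes, and 0 higher, against 5.62%. With edgeR on the recovered reads 1 member was called lower, against 0.263% of all genes, and 0 higher, against 0.124%. With DESeq2 on them 3 were lower, against 4.24%, and 0 higher, against 2.1%. In the authors' deposited table the count was 5 lower at an adjusted p under 0.05, against 5.16% of all genes with one, and 0 higher, against 3.03%. The fold change was below 0 for 23 of the 29 and above 0 for 6, with a median log2 fold change of -0.27, where all tested genes had -0.05. In 9 members every Ko library lay below every Het library, against 9.86% of all tested genes, and in 0 every Ko library lay above, against 8.57%.

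**Figure D1:**
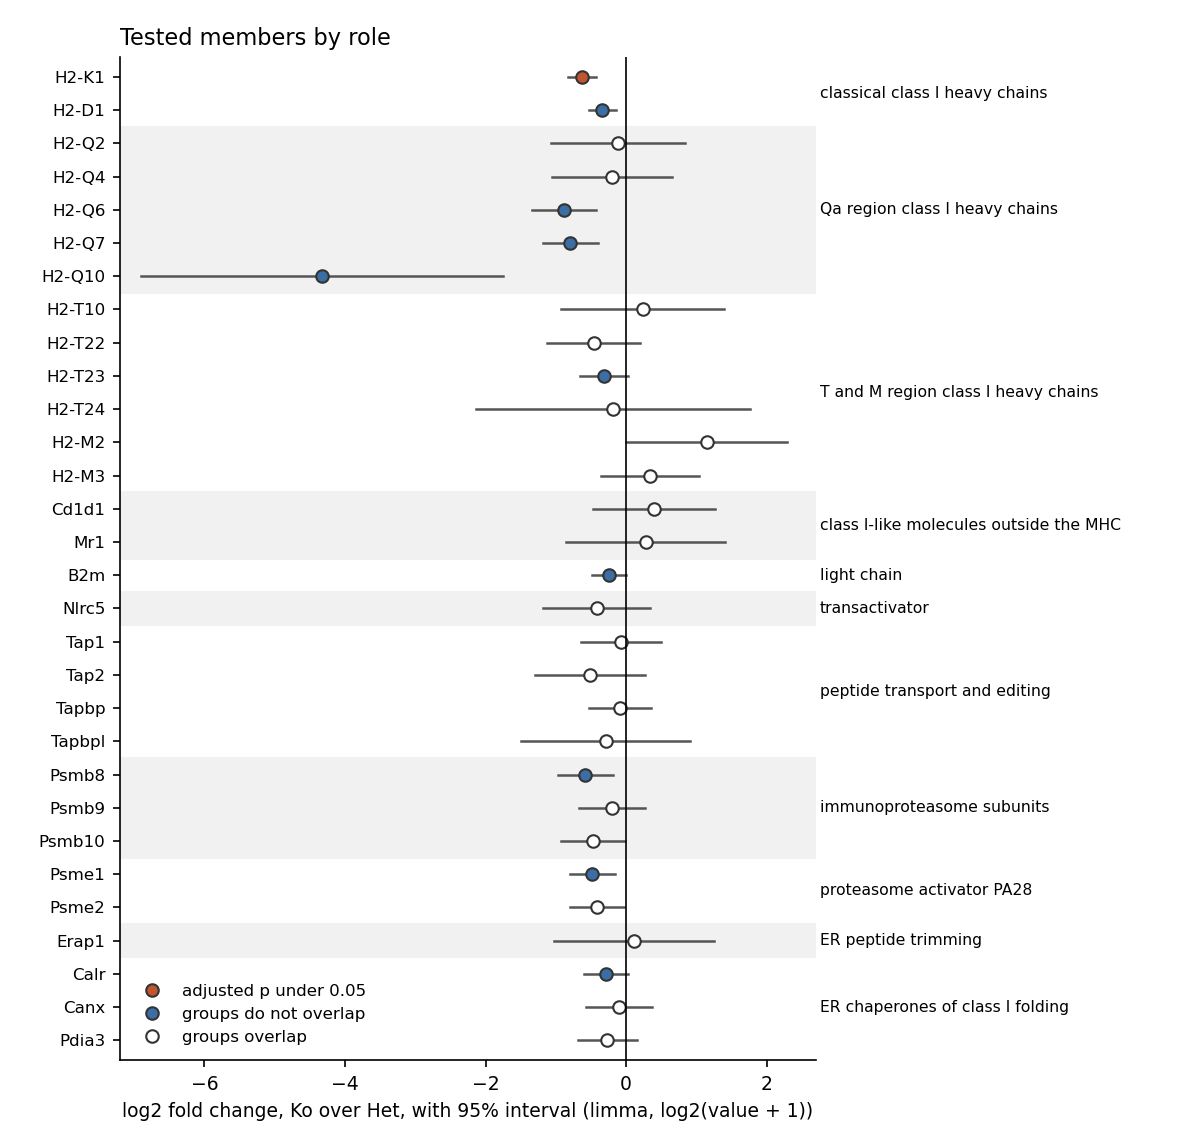
Log2 fold change (Ko over Het, on the log2(value + 1) scale) of the 30 tested members with its 95% interval from limma, ordered by role. H2-K1 is the member with an adjusted p under 0.05, filled blue points mark the other members whose Het and Ko libraries did not overlap, and the widest interval is that of H2-Q10, which passed the minimum only through its Het libraries.

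The classical heavy chains H2-K1 and H2-D1 present peptides to most CD8 T cells, and both stood lower in every Ko library. H2-K1 had normalized values of 62881, 66875 and 66898 in Het1 to Het3 and of 44462, 43168 and 40215 in Ko1 to Ko3. The 3 Het libraries lay close together and all Ko libraries were well below them. The Het mean was 65551 ± 2312 and the Ko mean 42615 ± 2177 (SD, n = 3 each), a level 35.0% lower. Its log2 fold change was -0.62 ± 0.09 (SE, 95% interval -0.82 to -0.42), with an adjusted p of 0.0191 in limma, 0.0491 in edgeR and 0.00028 in DESeq2. The call was lost on leaving out Het2, Het3, Ko1, Ko2 or Ko3, with an adjusted p of 0.0546 to 0.199 in limma, while the log2 fold change stayed between -0.65 and -0.58.

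H2-D1 had 51256, 52354 and 50758 in the Het libraries and 40746, 40838 and 40533 in the Ko libraries. Its libraries lay close together within each group, with a coefficient of variation of 1.59% in Het and 0.385% in Ko. The level was 20.9% lower in Ko, a log2 fold change of -0.34 ± 0.09 (SE). The adjusted p was 0.113 in limma, 0.205 in edgeR and 0.106 in DESeq2 on the recovered reads. The authors' deposited table gives H2-D1 a log2 fold change of -0.34 with an adjusted p of 0.0275. The ratio of H2-K1 to H2-D1 was 1.23, 1.28 and 1.32 in Het1 to Het3 and 1.09, 1.06 and 0.992 in Ko1 to Ko3, so it was lower in every Ko library too. No test was run on this ratio, which was chosen after the values were seen.

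Heavy chain genes are close copies of each other, and reads can be split between them. Of the 50-base stretches in their GENCODE vM21 transcripts, 9.63% in H2-K1 and 12.8% in H2-D1 also occur in another gene. Summed to 1 value, H2-K1 and H2-D1 stood at 117008 ± 2607 in Het and 83320 ± 2308 in Ko (SD, n = 3 each), with a log2 fold change of -0.49 and an adjusted p of 0.0306 in limma.

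**Figure D2:**
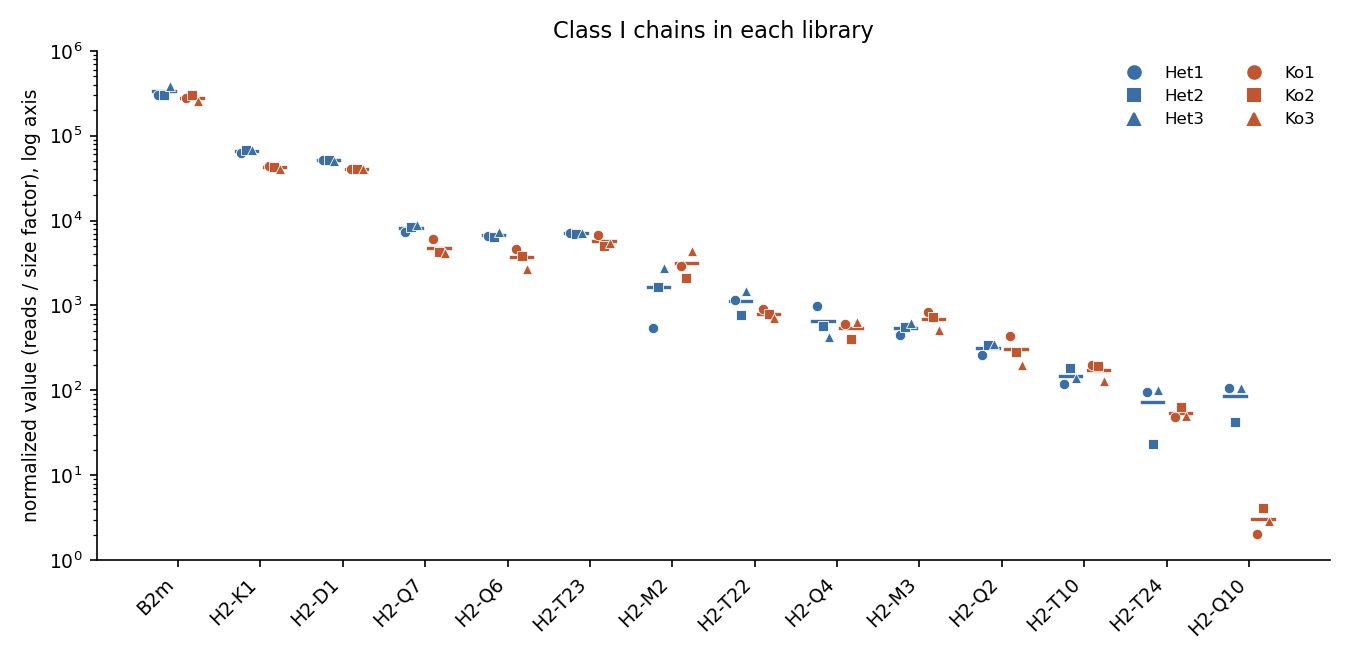
Normalized value of B2m and of the 13 tested heavy chain genes of the H2 region in each library, on a log axis, with the group mean as a line. H2-K1 and H2-D1 form tight groups that do not overlap, H2-Q10 is near the level of 3 reads in all Ko libraries, and H2-M2 has its lowest value in Het1.

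With H2-Q10 left out, the lowest fold changes of the other 29 tested members were those of H2-Q6 and H2-Q7 in the Qa region. H2-Q7 and H2-Q6 encode Qa-2 antigens, which can be tethered to the membrane by a lipid anchor. H2-Q7 had 7332, 8393 and 8879 in the Het libraries and 5989.99, 4287 and 4097 in the Ko libraries. All Ko values lay below the lowest Het value, with a log2 fold change of -0.79 ± 0.18 (SE) and an adjusted p of 0.0815 in limma. H2-Q6 had 6574, 6392 and 7305 in Het and 4669.97, 3856 and 2716 in Ko, again without overlap. Its log2 fold change was -0.88 ± 0.20 (SE), with an adjusted p of 0.0865 in limma, 0.170 in edgeR and 0.00492 in DESeq2. H2-Q6 and H2-Q7 share sequence, since 14.0% of the 50-base stretches of H2-Q6 occur in H2-Q7.

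H2-Q10 encodes a class I chain best known as a secreted product of the liver. Its normalized values were 106, 41.9 and 107 in Het1 to Het3 and 2.06, 4.14 and 2.86 in Ko1 to Ko3, from 189, 59 and 74 reads against 2, 4 and 2 reads. The 3 Ko libraries were near the level of a few reads and no Het library was. The ratio of reads at equal depth was 27.3-fold higher in Het. H2-Q10 passed the minimum only through its Het libraries and so had to differ, so this ratio is no evidence of a difference. Of its 50-base stretches, 14.0% also occur in H2-Q7, whose level was far higher. H2-Q2 had 263 to 349 in Het and 198 to 438 in Ko, and H2-Q4 had 423 to 997 in Het and 401 to 647 in Ko, so both overlapped. H2-Q1 was at 8.95, 4.26 and 1.44 in Het and at 0, 4.14 and 2.86 in Ko, too few reads for a comparison. All H2-Q members summed stood at 16027 ± 927 in Het and 9399.7 ± 2078 in Ko, with an adjusted p of 0.0591 in limma.

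The promoters of these heavy chains are shown because the genes are close relatives. Class I promoters are known for an enhancer A with a kappa B site, an interferon-stimulated response element, and an S-X-Y module through which NLRC5 acts. The lines give the 190 bases before the start of transcription, from RefSeq on GRCm38.p6, whereas the submitters' processing notes name GRCm39. Capitals mark GGGATTCC (kappa B), TTTCNNTT (response element), TGACG (the CRE core of the X box) and CCAAT (Y box), searched on both strands, so that CCAAT can read ATTGG. The motifs do not overlap each other in these windows and were chosen after the letters had been seen. RefSeq gives H2-K1 more than 1 start, and the window of the upstream start is printed. The window of the other start holds a further CCAAT, which lies past the end of the printed window. Each window is set by the annotated start of its gene, and the lines are not aligned with each other.
H2-K1, chr17:34000348-34000537, minus strand: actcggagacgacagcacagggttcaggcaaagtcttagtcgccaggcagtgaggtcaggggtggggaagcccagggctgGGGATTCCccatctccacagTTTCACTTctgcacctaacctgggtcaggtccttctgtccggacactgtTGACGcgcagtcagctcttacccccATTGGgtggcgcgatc
H2-D1, chr17:35262904-35263093, plus strand: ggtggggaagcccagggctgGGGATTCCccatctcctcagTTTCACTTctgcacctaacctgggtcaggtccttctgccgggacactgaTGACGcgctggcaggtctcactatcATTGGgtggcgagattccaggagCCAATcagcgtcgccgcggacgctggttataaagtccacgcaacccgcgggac
H2-Q7, chr17:35438965-35439154, plus strand: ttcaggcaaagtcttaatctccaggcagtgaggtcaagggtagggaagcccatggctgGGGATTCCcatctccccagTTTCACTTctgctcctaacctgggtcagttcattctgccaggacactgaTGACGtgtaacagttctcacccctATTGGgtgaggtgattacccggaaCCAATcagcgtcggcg
H2-Q6, chr17:35424660-35424849, plus strand: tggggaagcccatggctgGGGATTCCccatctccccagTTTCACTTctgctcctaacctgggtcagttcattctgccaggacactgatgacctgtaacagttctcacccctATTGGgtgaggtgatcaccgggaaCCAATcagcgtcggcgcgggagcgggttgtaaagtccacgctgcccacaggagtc
H2-Q10, chr17:35469899-35470088, plus strand: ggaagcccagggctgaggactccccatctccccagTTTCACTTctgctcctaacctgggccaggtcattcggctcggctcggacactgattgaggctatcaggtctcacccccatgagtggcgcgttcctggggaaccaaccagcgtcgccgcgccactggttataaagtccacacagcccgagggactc
B2m, chr2:122147497-122147686, plus strand: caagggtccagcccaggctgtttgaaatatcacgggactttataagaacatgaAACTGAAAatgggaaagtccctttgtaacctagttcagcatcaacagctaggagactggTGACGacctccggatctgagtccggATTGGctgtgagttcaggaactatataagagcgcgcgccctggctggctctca

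H2-K1, H2-D1 and H2-Q7 held all 4 motifs in the 250 bases before the start. Only 6 of 32536 RefSeq promoters of the same length (0.0184%) did so, and these 6 include the windows of the 3 genes themselves. As the motifs were also chosen after these letters had been seen, this share is no independent background. H2-Q6 lacked TGACG, and H2-Q10 held TTTCNNTT only. Of the 32 members, 25 had a promoter in the RefSeq table. GGGATTCC was in 4 of them, against 0.894% of all promoters, and TTTCNNTT was in 15 of them, against 21.3%. TGACG was in 13, against 17.85%, and CCAAT in 17, against 33.8%. Psmb8, Psmb10, Psme1 and Erap1 held none of these letters in the window. A match or its absence describes these letters and shows no binding.

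The heavy chains of the T and M regions did not share 1 direction. H2-T23 encodes Qa-1, which presents class I leader peptides and is read by NK cell receptors, and it had 7188, 7024 and 7165 in Het and 6815, 4993 and 5462 in Ko. The groups did not overlap, but Ko1 was close to the Het libraries, and the adjusted p in limma was 0.406 at a log2 fold change of -0.32. H2-T22 and H2-T10 encode ligands of gamma delta T cells. H2-T22 had 768 to 1498 in Het and 708 to 900.2 in Ko, H2-T10 had 117 to 185 and 130.3 to 197, and 31.25% of the 50-base stretches of H2-T22 occur in H2-T10. H2-T24 had 23.4 to 101 in Het and 48.4 to 63.2 in Ko. H2-T3, the gene of the thymus leukaemia antigen, had 14.5, 0 and 0 in Het and 3.09, 1.04 and 0 in Ko, from 26 and 4 reads. The H2-T genes summed had 8494 ± 457 in Het and 6789 ± 1028 in Ko, with an adjusted p of 0.365 in limma.

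H2-M2 had the highest fold change of all members. Its values were 539, 1668 and 2780.4 in Het1 to Het3 and 2956, 2096 and 4346 in Ko1 to Ko3. Het3 exceeded Ko2, so the groups overlapped, and the log2 fold change of 1.14 (95% interval -0.0027 to 2.29) had an adjusted p of 0.368 in limma. H2-M3, which presents formylated bacterial peptides, had 453 to 619 in Het and 519 to 833 in Ko. Outside the H2 region, Cd1d1 presents lipids to NKT cells and had 415, 786 and 557 in Het and 1243, 593 and 569 in Ko. Ko1 alone was above the Het range. Mr1, which presents vitamin B metabolites to MAIT cells, had 264, 205 and 208 in Het and 261, 156 and 488 in Ko, and Ko3 alone stood above the Het range. The log2 fold changes were 0.40 (95% interval -0.47 to 1.27) for Cd1d1 and 0.28 (95% interval -0.85 to 1.40) for Mr1.

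The light chain B2m had 303957, 303971 and 387431 in Het and 277932, 303016 and 256675 in Ko. Ko2 lay just below Het1 and Het2 while Het3 stood apart above, so the gap between the groups was narrow. Its log2 fold change was -0.24 ± 0.11 (SE), with an adjusted p of 0.356 in limma, and none of its 50-base stretches occurs in another gene. H2-K1 per B2m was 0.207, 0.220 and 0.173 in Het and 0.160, 0.142 and 0.157 in Ko, a narrow gap. H2-D1 per B2m overlapped, at 0.131 to 0.172 in Het and 0.135 to 0.158 in Ko.

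Nlrc5, the transactivator of class I genes, had 837, 460.1 and 639 in Het and 378, 491 and 556 in Ko. The ranges overlapped, with a log2 fold change of -0.42 (95% interval -1.18 to 0.34) and an adjusted p of 0.650 in limma. Both TAP subunits overlapped between the groups. Tap1 had 2478, 1739 and 1679 in Het and 1458, 1745 and 2435 in Ko, and Tap2 had 1096, 692 and 847 in Het and 384, 695 and 824 in Ko. Ko1 was the lowest library for both. Tapbp, which encodes tapasin, had 2753, 2040.5 and 2045 in Het and 2091, 2119.6 and 2167 in Ko. Tapbpl, the gene of a second peptide editor, had 192 to 339 in Het and 123 to 361 in Ko. The 95% intervals of the log2 fold changes were -0.64 to 0.49 for Tap1, -1.30 to 0.27 for Tap2 and -0.52 to 0.35 for Tapbp.

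None of the 3 immunoproteasome subunits passed the test. Psmb8 (LMP7) had 4934, 5896 and 6431 in Het and 4486, 3684 and 3366 in Ko. The groups did not overlap, and the log2 fold change of -0.58 ± 0.17 (SE) had an adjusted p of 0.172 in limma. Psmb10 (MECL-1) had 4589, 7412 and 7213 in Het and 3987, 4703 and 4956 in Ko. Het1 lay among the Ko values, and the log2 fold change was -0.47 with an adjusted p of 0.354 in limma. Psmb9 (LMP2) had 3478.5, 3992 and 4492 in Het and 3622, 4294 and 2646 in Ko, which overlapped. Psmb9 and Tap1 are read in opposite directions from neighbouring starts, at chr17:34187331-34187520 and chr17:34187366-34187555 for the 190 bases before each start on GRCm38.p6, so these windows share bases.

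Each inducible subunit was also set against the constitutive subunit it replaces. Psmb8 per Psmb5 was 3.52, 2.90 and 3.76 in Het and 2.98, 2.23 and 2.17 in Ko. Ko1 exceeded Het2, and the exact two-sided permutation test over the libraries gave p = 0.2. Psmb10 per Psmb7 was 2.57, 3.77 and 2.37 in Het and 2.27, 2.02 and 2.38 in Ko, with p = 0.2 in the exact test. Psmb9 per Psmb6 was 0.353 ± 0.0168 in Het and 0.352 ± 0.0962 in Ko (SD, n = 3 each), with p = 1 in the exact test. With 3 libraries against 3 this test cannot go below 0.1. The constitutive subunits Psmb5, Psmb6 and Psmb7 had log2 fold changes of -0.11, -0.16 and -0.11.

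**Figure D3:**
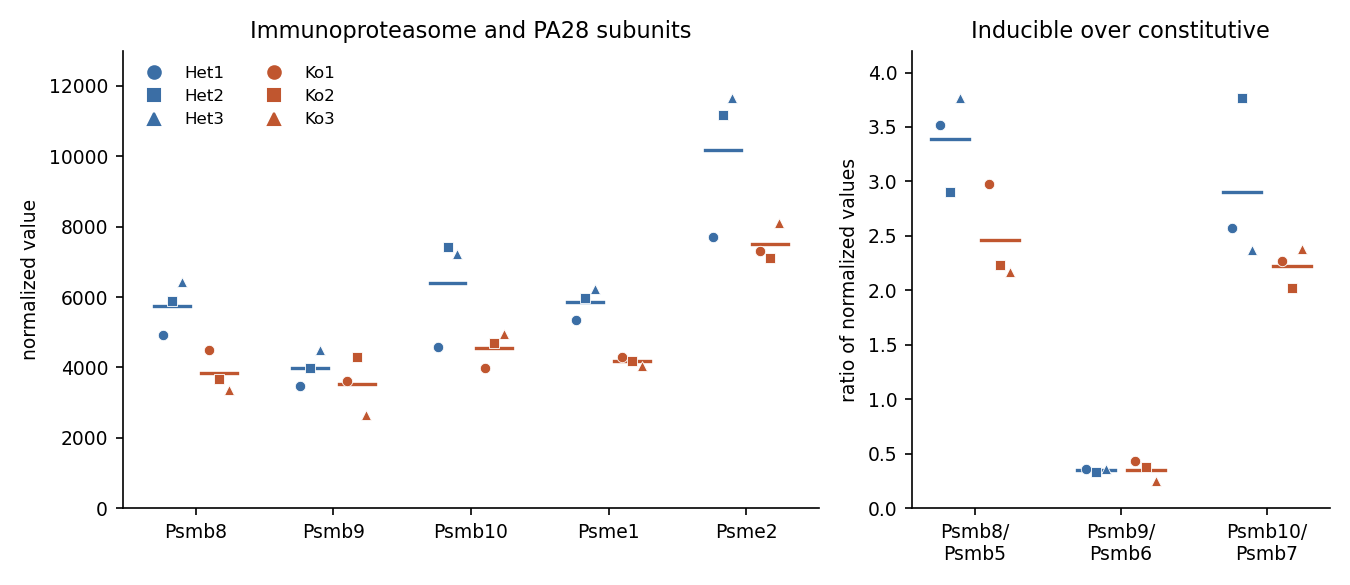
Normalized values of the immunoproteasome and PA28 subunits (left) and ratios of each inducible subunit to its constitutive counterpart (right) in each library, with group means as lines. Psmb8 and Psme1 do not overlap between the groups, Het1 is the lowest Het library for all 5 genes, and all 3 ratios overlap.

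PA28 is a ring that opens the proteasome, made of the products of Psme1 and Psme2. Psme1 had 5334, 5974 and 6230.3 in Het and 4306, 4169 and 4051 in Ko. The Ko libraries had a coefficient of variation of 3.06% and all lay below Het. The log2 fold change was -0.48 ± 0.14 (SE). The adjusted p was 0.172 in limma, 0.219 in edgeR, 0.0648 in DESeq2 on the recovered reads and 0.0175 in the authors' deposited table. Psme2 had 7717, 11167 and 11652.5 in Het and 7318, 7108 and 8100.2 in Ko, with Het1 among the Ko values, and 28.3% of its 50-base stretches occur in Psme2b. Erap1, the aminopeptidase of the endoplasmic reticulum, had 296, 654 and 258 in Het and 736, 332 and 259 in Ko, with 1 high library in each group. Of the folding chaperones, Calr (calreticulin) had 6055, 7124 and 6683 in Het and 5247, 5294 and 5665 in Ko, without overlap and with an adjusted p of 0.405 in limma. Canx (calnexin) had 2592 to 3738 in Het and 2540.2 to 3652 in Ko, and Pdia3 (ERp57) had 3262 to 4616 and 2796 to 3621.

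Of 13 other class I and class I-like genes that were tested, 0 passed the test in either direction in limma. The fold change was below 0 for 11 and above 0 for 2, with a median of -1.32, but 5 of the 13 had a Ko mean under 10 and so passed the minimum only through their Het libraries. The other 8 had 6 fold changes below 0, 2 above and a median of -0.21. H2-Q5, among these 8, had 855, 856 and 871 in Het and 583, 269 and 261 in Ko, without overlap. Among the 5, Cd1d2 had 70.5, 34.1 and 44.7 in Het and 0, 0 and 1.43 in Ko, and H2-Bl had 13.4 to 58.9 in Het and 0 to 6.22 in Ko.

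Among 37 other proteasome genes, 0 passed in either direction and the median log2 fold change was -0.08. The smallest p-values belonged to the lid deubiquitinase Psmd14 (log2 fold change -0.61), the base ATPase Psmc2 (-0.46) and the activator Psme4 (0.52). Of 8 other peptidases 0 passed, and Tpp2, which cuts long peptides in the cytosol, had 802 to 1269 in Het and 1608 to 2419.9 in Ko. Of 18 genes of folding and translocation in the endoplasmic reticulum 0 passed, with a median of -0.10. At an unadjusted p under 0.05, limma counted 3, 1 and 2 genes in these 3 lists, each a share under the 13.6% of all tested genes.

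Genes of interferon signalling stood partly in the other direction from the heavy chains. Of 24 class I transcription factors and signalling genes, 0 passed, and at an unadjusted p under 0.05 limma counted 4 higher and 2 lower, where the shares of all genes were 5.62% and 7.99%. Irf9, a subunit of the interferon-activated factor ISGF3, had 1528, 1868 and 2118 in Het and 3222, 3351 and 3889 in Ko. Its log2 fold change was 0.93 with an adjusted p of 0.0644 in limma. Nfkb1, the gene of the p50 subunit that binds kappa B sites, had 1983 to 2491 in Het and 1308 to 1458 in Ko, and Stat2 had 1095.5 to 1766 and 1865 to 2727. Of 25 interferon-stimulated genes 1 passed, the GTPase gene Igtp, which was higher in Ko, as were 0.288% of all tested genes. Igtp had 1282, 1306 and 1241 in Het and 3024, 2830.2 and 2373 in Ko (log2 fold change 1.10, adjusted p 0.0403 in limma and 0.0532 in edgeR). Bst2 had 1351 to 1882 in Het and 792 to 957 in Ko, and Usp18 had 2835 to 3345 and 2217 to 2386. The median of the interferon-stimulated genes was 0.29, with 16 of 25 fold changes above 0, where 9159 of all 19416 tested genes were above 0. At an unadjusted p under 0.05, however, limma counted 3 of the 25 lower and 1 higher, where the shares of all genes were 7.99% and 5.62%.

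The MHC class II genes, the counterpart that presents peptides from the endosome, had 9 of 9 fold changes below 0 and a median of -0.95. In limma 0 passed, and 5 were lower at an unadjusted p under 0.05, where the share of all tested genes was 7.99%. Their summed value was 117948, 260838 and 257451 in Het and 103344, 142134 and 80275 in Ko. The smallest p-values belonged to H2-Ob, H2-Ab1 and Cd74. H2-Ob had 240, 653 and 387 in Het and 5.14, 95.3 and 35.8 in Ko, with an adjusted p of 0.116 in limma. It was the 1 gene of the 9 without overlap, where the share of all tested genes was 9.86%. H2-Ab1 had 23904 to 50257 in Het and 15824 to 26461 in Ko. Cd74, the invariant chain that escorts class II molecules, had 61221, 134049 and 144842 in Het and 51503, 73288 and 43336 in Ko. Het1 lay among the Ko libraries for the class II sum, as it did for Psmb10 and Psme2, and above them for H2-K1, H2-D1, H2-Q6 and H2-Q7.

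Markers of other cells moved between the libraries as well. The summed value of 10 genes of Aire-stage and mature medullary epithelium was 12947, 49152 and 45678 in Het and 8568, 7701 and 9812 in Ko. Ubd was the most abundant and made 8249, 40719 and 35545 of this in Het and 4089.7, 4998 and 7394 in Ko. Aire had 147, 1536 and 1656 in Het and 52.5, 441 and 96.0 in Ko, which overlapped. Of these 10, Ctsz passed the test in limma and was lower in Ko, and none was at 0 in all libraries. The summed value of 13 dendritic cell and macrophage genes was 4584 to 53941 in Het and 808 to 3292 in Ko. Lyz2 made 53299.9, 3666 and 8729 of this in Het1 to Het3 and 497, 2899.6 and 1130 in Ko1 to Ko3. In the same list, Itgax stayed under 5 normalized units in every library. Zbtb46 had 164 to 339 in Het and 132 to 328 in Ko, and Batf3 had 15.1 to 98.1 and 0 to 52.5. Of the 13, 8 were tested, and in limma 0 passed. Among the 8, Xcr1 and Adgre1 had Ko means of 7.47 and 2.06. They passed the minimum only through their Het libraries, so their lower Ko means are no evidence of a difference. Of the others, Lyz2 and Itgam had every Ko library below every Het library, where the share of all tested genes was 9.86%. Batf3, Zbtb46, Csf1r and C1qa overlapped. Of the B cell genes, Cd79b passed the test in limma and was higher in Ko, with 3039, 1876 and 2473 in Het and 4665, 5508 and 5665 in Ko. Ms4a1 was under 5 in every library, but beside Cd79b not all genes of this list were this low. The 12 thymocyte and T cell genes summed to 131 to 498 and 203 to 445, with Cd8a, Cd8b1, Rag1, Rag2 and Ptcra under 10 in every library. The 10 genes of endothelium, mesenchyme and erythroid cells summed to 1460 to 9418 in Het and 1119 to 11028 in Ko, with Hbb-bs at 6292 in Het3 and Dcn at 9169 in Ko2. The 14 tuft cell genes summed to 97619.7 to 152477 in Het and 141643 to 163219 in Ko, and Ptgs1 passed the test and was higher in Ko. Of the 14 fold changes 13 were above 0, with a median of 0.33, where 9159 of all 19416 tested genes were above 0 and their median was -0.05. Of all tested genes, 0.525% passed in limma as lower in Ko and 0.288% as higher. The part of any of these cells in the class I differences was not tested.

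**Figure D4:**
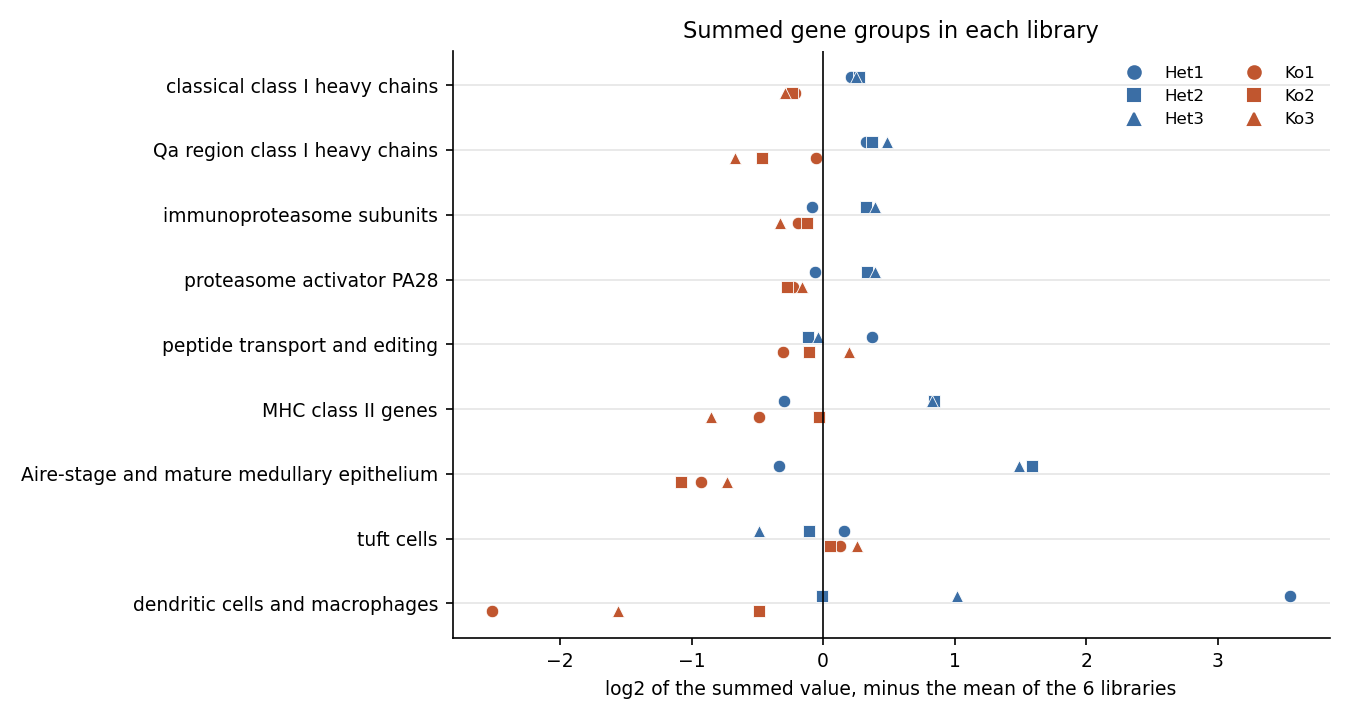
Log2 of the summed normalized value of gene groups in each library, minus the mean of the 6 libraries. The classical and Qa region heavy chains separate the groups with all 3 Het libraries above all Ko libraries, whereas in the immunoproteasome, PA28, class II and Aire-stage sums Het1 stands nearer to the Ko libraries than to Het2 and Het3.

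The members varied little within groups next to other genes. The median coefficient of variation of the tested members was 18.7% in Het and 20.4% in Ko, and that of all tested genes was 44.2% and 44.0%, with no account taken of their levels. The median deviation of the members from their 6-library mean on the log2 scale was 0.10, 0.15 and 0.26 in Het1 to Het3 and -0.11, -0.17 and -0.19 in Ko1 to Ko3. No library of a group crossed to the side of the other.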

How the data were processed

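RNA was sequenced from 6 samples of sorted thymic tuft cells, 3 per genotype, per the labels. The submitters' processing notes name DESeq2 (no version), STAR 2.7.9a, and GRCm39 as the build. For the read counter, annotation and strandedness, the sources used here give nothing, and without strand a gene and its antisense partner cannot be told apart. In the deposited expression table each value is a signal, a read count scaled by its library's size factor, as the values themselves show. The authors' comparison table gives, per the file headers, a log2 fold change, its standard error and a Wald score, and a p-value with its adjusted p-value. Its fold changes carry the sign of Ko over Het in 99.91% of genes whose mean is 50 or more.

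Whole reads were recovered for 100% of values, within 0.01 reads. Genes with a mean value of at least 10 were tested on log2(value + 1), a scale that understates the change of low genes, with limma 3.58.1 in R 4.3.3 (trended eBayes, two-sided, genotype only, Benjamini-Hochberg at 0.05 over all genes tested). A ratio of subunits was tested by an exact permutation test over libraries. The fits were tested on simulated data. Alternatives were pseudocounts of 0.5 and 5, no minimum or a mean of at least 50, TMM and equal-total scaling, edgeR 4.0.16 and DESeq2 1.42.0 on recovered reads, leaving out each library, a block by column number, and summing near-identical heavy chains. The members and gene lists were chosen with earlier results of these data known. A member was described in every library where it passed the test, had groups without overlap or was central to its role. Of each pathway list the genes that passed and up to 3 others with the smallest p were named. Of each marker list at most 2 were planned. The further marker genes named, Ptgs1 among them, were chosen after their values were seen.

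Symbols came from a gene name table that matched 55144 of 55471 identifiers. Listed class I genes without a match were not analysed here. Promoters came from RefSeq (GRCm38.p6) and lengths and shared 50-base stretches from GENCODE vM21 transcripts (GRCm38), neither of the authors' build. The B cell markers are given by single genes, and 1 of them is not reported here.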

Additional observations from a re-analysis of the deposited data

How the results depend on the processing

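Counts of calls depended on the test used and on single libraries. The count of members called lower, 1 in the reported fit, was 2 without a minimum (H2-K1 and H2-D1), 4 with DESeq2 (H2-K1, H2-Q6, H2-Q7 and H2-Q10, the last of which passed the minimum only through Het) and 0 to 1 when each library was left out. The count of all genes called, 158 in the reported fit, was 75 with edgeR, 1118 with DESeq2, 87 with a replicate block by column number and 0 to 81 when each library was left out. It was 0 without Het2 and without Het3 in limma, where 2127 and 2085 genes had an unadjusted p under 0.05. H2-K1 was called in 10 of its 15 alternatives, with adjusted p from 0.00028 to 0.199, and was lost without Het2, Het3, Ko1, Ko2 or Ko3. The median log2 fold change of the members lay between -0.33 and -0.21 over the fits without 1 library, the latter without Het3.

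Fold changes kept their sign in 21 of 30 tested members under every alternative run. The other 9 changed sign in 14 of 468 values, all when a library was left out, and the cause was not tested. The range over those fits was -0.41 to 0.16 for H2-Q2, -0.48 to 0.14 for H2-Q4, -0.86 to 0.17 for H2-T24, -0.15 to 0.67 for Mr1, -0.28 to 0.10 for Tap1, -0.16 to 0.057 for Tapbp, -0.73 to 0.040 for Tapbpl, -0.33 to 0.52 for Erap1 and -0.28 to 0.034 for Canx. The log2 ratio of Psmb9 to Psmb6 went from -0.04 to a range of -0.21 to 0.20, the latter without Ko3. TMM and equal-total scaling moved the median of all genes by 0.0173 and 0.023 on the log2 scale. Columns of the same number did not deviate together (correlations 0.025, 0.0214 and -0.0153), so the block paired nothing. Members at the level of a few reads, H2-Q1 and H2-T3, could not be compared at this depth.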

Other observations

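Values of 3 further genes, chosen after they were seen, varied widely between libraries of 1 genotype. The class I gene H2-M5 had 126, 184 and 1.44 in Het1 to Het3 and 1.03, 3.11 and 2.86 in Ko1 to Ko3, so that Het3 stood with the Ko libraries. Psmb11, the catalytic subunit of the thymoproteasome of cortical epithelium, had 181, 80.2 and 109.7 in Het and 88.5, 4.14 and 183 in Ko. Ko2 was the library with hardly any reads of it, while the other Ko libraries lay in the Het range or at its upper end. The chemokine gene Cxcl9, an interferon-gamma target, had 439.6, 584 and 2348 in Het and 1032, 2145 and 5632 in Ko, with Het3 and Ko3 the highest of their groups.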
